A study of Mus musculus with 4 samples.

Results

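The genes described here are 9 markers of the secretory and basal cells that line the conducting airways of the lung. They are the secretoglobin genes Scgb1a1, Scgb3a1 and Scgb3a2, the cytochrome gene Cyp2f2, the uroplakin gene Upk3a, the lactoferrin gene Ltf, the aquaporin gene Aqp3, the tetraspanin gene Tspan8 and the transcription factor gene Trp63. They were chosen by name, as 9 of the 52636 Ensembl genes in the deposited table, and all 9 symbols matched 1 row each. Whole lungs of mice on the C57BL/6 strain were taken at embryonic day 14.5 and their RNA was sequenced. The groups are wild type (control, n = 2 libraries) and Yap conditional knockout (Yap CKO, n = 2), which the series title describes as specific to the epithelium. The Cre driver and the deleted exons are not given in the sources used here, and neither is whether the 2 libraries of a group came from separate embryos. The p-values therefore measure the spread between these libraries. In the Yap CKO pair it may be technical, whereas the controls differ in sex-linked transcripts and are not repeats of the same RNA sample.

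Club cells are secretory cells of the bronchioles. They make secretoglobins, small secreted proteins of the airway lining fluid, and detoxifying enzymes, and they give rise to ciliated cells. Basal cells lie beneath them in the trachea and large airways and act as stem cells of the airway epithelium. The transcription factor p63, encoded by Trp63, is needed to form basal cells. Both cell types are still immature at this stage, and YAP, a transcriptional coactivator controlled by Hippo signalling, is known to regulate airway progenitor cells.

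The recovered depth ran from 17756301 to 21333878 reads per library. In these libraries 3 reads, the limit that a count of 0 allows, correspond to 2.80 to 3.51 normalized counts. Intervals and floors cover counting error only. The lung epithelial factor gene Nkx2-1 stood between 2569 and 3333 normalized counts in all 4 libraries. Libraries differed in ways that the groups do not explain. The summed level of 14 heart muscle genes was 54010 in control 2, against 1798 in control 1 and 12131 and 2143 in the Yap CKO pair, and none of them was called (1 at an unadjusted p under 0.05, Ryr2 and Nppb nearest at adjusted p = 0.226 and 0.404, limma). Control 1 was also the only library with low Xist, an X-inactivation transcript (42.6 normalized counts, against 42729 or more in the others), and its Y-linked Ddx3y was at 1726, against 16.4 or less. By these genes control 1 is male and the other libraries are female, so the sexes are mixed in the control group only. The 12 listed neutrophil granule genes summed to 1141 in control 1 and to 143, 144 and 92.3 in control 2, Yap CKO 1 and Yap CKO 2. Yap1 itself overlapped between the groups (5686 and 3467 in control, 3209 and 4483 in Yap CKO), so it does not check the labels. In whole lung, fewer cells of a type and less RNA per cell cannot be told apart.

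Scgb1a1 is shown first because it was the member that fell. Its only annotated transcript has a coding sequence of 291 bases, 96 codons before the stop (GENCODE M21, mm10). The capitals mark the start and the stop codon.
Scgb1a1: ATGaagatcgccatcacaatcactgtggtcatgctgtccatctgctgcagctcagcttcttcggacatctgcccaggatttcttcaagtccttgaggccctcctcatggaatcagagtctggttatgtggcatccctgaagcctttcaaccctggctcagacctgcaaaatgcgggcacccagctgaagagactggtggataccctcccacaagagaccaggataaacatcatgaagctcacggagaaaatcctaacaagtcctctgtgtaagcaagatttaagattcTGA

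Start-site sequence is shown for Tspan8, the member that rose, and Cyp2f2, which was also higher in both Yap CKO libraries. The RefSeq table (GRCm38.p6) held the start of 6 of the 9 members, leaving out Scgb1a1, Scgb3a2 and Trp63. The 250 bases before each start were searched on both strands for GGAATG (TEAD factors, the DNA-binding partners of YAP), CAAGTG (NKX2-1), TGTTTAC (FOXA factors) and ACAATG (SOX factors). None of these motifs overlaps another in the matches found. Tspan8 held TGTTTAC 18 bases before its RefSeq start, a motif found in 3.09% of 27025 promoters of this length. Cyp2f2 held CAAGTG 191 bases before its start, and so did Scgb3a1 on the opposite strand at 174 bases, against 11.6% of promoters. GGAATG (12.6% of promoters) and ACAATG (in 2969 of the 27025) matched in none of the 6 windows. A match is only a run of letters and was not tested for binding. The stretches lie on the plus strand at chr10:115817255-115817283 for Tspan8 and at chr7:27119705-27119908 for Cyp2f2, before its annotated start. The Tspan8 motif overlaps an exon of a GENCODE transcript, and its whole window lies after the GENCODE start of the gene at 115816832. Capitals mark the motif.
Tspan8: aacttgatatcTGTTTACtctagagggag
Cyp2f2: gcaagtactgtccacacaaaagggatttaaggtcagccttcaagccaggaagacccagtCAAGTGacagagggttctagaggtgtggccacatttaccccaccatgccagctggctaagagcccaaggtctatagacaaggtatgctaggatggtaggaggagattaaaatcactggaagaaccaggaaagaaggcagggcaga

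The comparison asked how airway marker genes differ between lungs labelled Yap CKO and control. Scgb1a1 fell and Tspan8 rose, Cyp2f2 and Trp63 were higher in both Yap CKO libraries without passing the test, and the other members overlapped between the groups. Of the 9 members, 7 had a mean of at least 10 normalized counts and were tested with limma on log2(normalized count + 1). Calls needed an adjusted p under 0.05 over all 19472 genes tested. 1 member rose and 1 fell, where 2.33% of all genes were called (1.19% higher and 1.15% lower). For alternative settings named below, the share of all genes called was 2.18% with TMM scaling, 2.07% with edgeR, 0.168% with no filter, 2.61% with the filter at 50 and 0.0308% without the intensity trend. Against 454 genes called in the main fit, DESeq2 called 1037 and a pseudocount of 5 called 476, each of 19472. Scaling to the listed general epithelial genes called 858 of 19511. Leaving out a library gave 12.6% for either control, 0.0103% for Yap CKO 1 and 0.0359% for Yap CKO 2. An unadjusted p under 0.05, counted for the gene lists below, was reached by 18.9% of all genes. The median log2 change of the 7 tested members was 0.59, against -0.005 over all genes. That median is the value of Aqp3, whose groups overlapped (adjusted p = 0.56, limma). The groups did not overlap for 4 members, a pattern that 50.8% of all genes tested showed (25.2% with Yap CKO above and 25.6% with Yap CKO below).

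**Figure D1:**
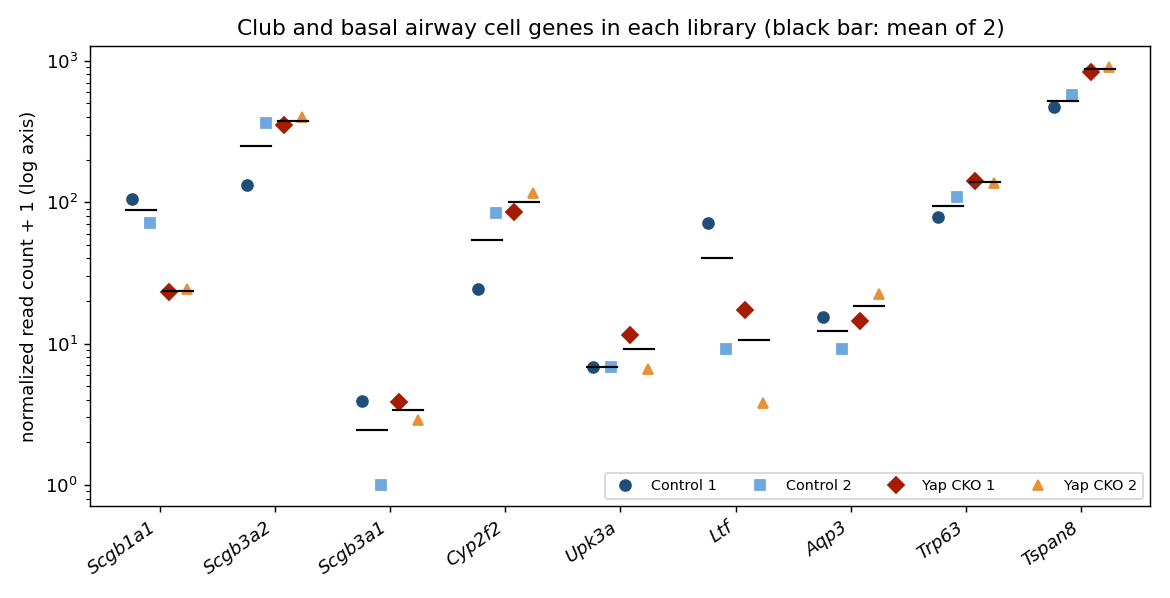
Normalized read counts plus 1 (log axis) of the 9 members, 1 point per library, with black bars at the mean of the 2 libraries of each group. Scgb1a1 is at 105 and 70.2 in controls and at 22.1 and 23.3 in Yap CKO, while Scgb3a2 and Cyp2f2 are lowest in control 1 alone.

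Scgb1a1 encodes uteroglobin, the main secreted protein of club cells (ENSMUSG00000024653, mm10 chromosome 19, 9083636 to 9087958, minus strand). Control 1 held 105 normalized counts of it and control 2 held 70.2, whereas Yap CKO 1 held 22.1 and Yap CKO 2 held 23.3. Both Yap CKO libraries lay below both controls, and the Yap CKO pair differed from each other by a ratio of 1.05 (95% counting interval 0.57 to 1.94). The controls differed by more than counting error, with a ratio of control 2 to control 1 of 0.67 (0.48 to 0.93). On the log2 scale it fell by 1.87 ± 0.30 (SE, adjusted p = 0.0363, limma), which is 3.66-fold. The reads behind it were few, 168 in control and 48 in Yap CKO. The call ended without Yap CKO 1 (adjusted p = 0.368, limma) or Yap CKO 2 (0.289), where few genes of any kind were called. The adjusted p was 0.0116 without control 1 and 0.000211 without control 2. Where a library is left out, the lone library of its group is assumed to vary like the other pair, which for a left-out control is the Yap CKO pair alone. It also ended with no filter (0.101), with the filter at 50 (0.054) and without the intensity trend (0.0991).

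Scgb3a2, another secretoglobin, marks secretory progenitors of the embryonic airway (chromosome 18, 43764289 to 43767399, plus strand). Control 1 held 132 normalized counts, control 2 held 365, and the Yap CKO libraries held 351 and 398. Control 2 lay between the Yap CKO libraries, and control 1 stood apart below all of them. The log2 difference was 0.77 ± 0.43 (SE, adjusted p = 0.398, limma). Without control 1 it was 0.035 (adjusted p = 0.916), and without control 2 it was 1.497 (5.88e-06). The ratio of control 2 to control 1 was 2.77, with a counting interval of 2.26 to 3.41, so the controls differed by more than counting error.

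Scgb1a1 and Scgb3a2 thus stood in different proportions in the libraries. Per kilobase of annotated exon, the level of Scgb1a1 was 1.47 times that of Scgb3a2 in control 1 and 0.36 times in control 2, against 0.116 and 0.108 times in the Yap CKO pair. The ratio was lower in both Yap CKO libraries than in either control, and the controls differed from each other by more than the Yap CKO pair. An exact permutation test of 2 against 2 libraries cannot give a two-sided p below 0.333. Scgb3a1, a secretoglobin of the larger airways (chromosome 11, 49663610 to 49665118), had 3 and 0 reads in controls and 3 and 2 in Yap CKO. All 4 values are at or under the floor, so no fold is given. Of the 34 secretoglobin genes in the table, 28 had no read in any library, and Scgb1a1 and Scgb3a2 alone passed the filter. Next in level was Scgb1c1, at 0 and 4.68 normalized counts in control and 0.96 and 2.80 in Yap CKO.

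Cyp2f2 encodes the club cell cytochrome P450 that activates naphthalene (chromosome 7, 27119909 to 27133660, plus strand). Control 1 held 23.3 normalized counts and control 2 held 83.0, while Yap CKO 1 held 83.6 and Yap CKO 2 held 116. The groups barely separated, with control 2 next to Yap CKO 1. The log2 difference of 1.14 ± 0.56 (SE) did not pass (adjusted p = 0.335, limma). It was 0.24 without control 1 (adjusted p = 0.601) and 2.03 without control 2 (8.53e-05). Control 1 again stood apart, with control 2 higher by a ratio of 3.57 (counting interval 2.22 to 5.93). The antisense gene Gm15883 overlaps exons of Cyp2f2 and held at most 2.80 normalized counts, and no source used here states whether counting used strand. Among the 48 genes of the CYP2 family 8 were tested and none was called (0 at an unadjusted p under 0.05 by limma). The most abundant were Cyp2d22 (log2 difference 0.04), Cyp2j6 (-0.01) and Cyp2s1 (-0.05). The signs of the last pair turn positive with equal totals (0.050 and 0.013). Cyp2r1, the vitamin D 25-hydroxylase gene, was next to Cyp2f2 by p (0.72, adjusted p = 0.436).

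Upk3a is expressed in a minority of club cells and in the urothelium (chromosome 15, 85017141 to 85022547). Its normalized counts were 5.81 and 5.85 in controls and 10.6 and 5.59 in Yap CKO, too low for the test. The groups overlapped. The reads, 17 in Yap CKO and 11 in control, gave a ratio of 1.38 with a counting interval of 0.61 to 3.26. Of the 6 uroplakin genes 3 were tested and none was called (2 at an unadjusted p under 0.05 by limma). Upk3b and Upk1b, which mesothelium expresses, were the most abundant (log2 differences of -0.51 and -0.48, adjusted p = 0.206 and 0.12, limma), followed by Upk1a (0.23, adjusted p = 0.744). Of the 9 listed mesothelial genes Muc16 fell (-1.14, adjusted p = 0.0237) and 8 did not pass, with Upk1b itself and Krt19 (-0.60, adjusted p = 0.13) nearest. Their part in the uroplakin values was not tested.

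Ltf encodes lactoferrin, an iron-binding protein of airway secretions that neutrophils also store in their granules (chromosome 9, 111019271 to 111042767). Control 1 held 69.8 normalized counts, control 2 held 8.19, and the Yap CKO pair held 16.3 and 2.80. Control 1 alone was high, and control 2 lay between the Yap CKO libraries. The log2 difference of -1.65 ± 1.09 (SE) did not pass (adjusted p = 0.474, limma). It was -0.18 without control 1 (adjusted p = 0.919) and -3.12 without control 2 (0.00383).

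Of the 12 listed neutrophil granule genes, whether tested or not, 11 were likewise highest in control 1. The share of all genes highest in control 1 was not counted. The myeloperoxidase gene Mpo reached 265 normalized counts in control 1, against 2.34, 1.92 and 5.59 elsewhere. The calprotectin gene S100a8 reached 225 there, against 19.9, 29.8 and 19.6 elsewhere. Of the 7 tested none was called (3 at an unadjusted p under 0.05), with Lcn2 and Ngp nearest (adjusted p = 0.168 and 0.196, limma). The elastase gene Elane had no read in either Yap CKO library. The part of these cells in the value of Ltf was not tested. Of the other transferrin family genes Trf did not pass (0.28, adjusted p = 0.725), and Meltf stood at 3.88 and 4.68 in controls and 30.8 and 13.05 in Yap CKO (2.01, adjusted p = 0.125).

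**Figure D2:**
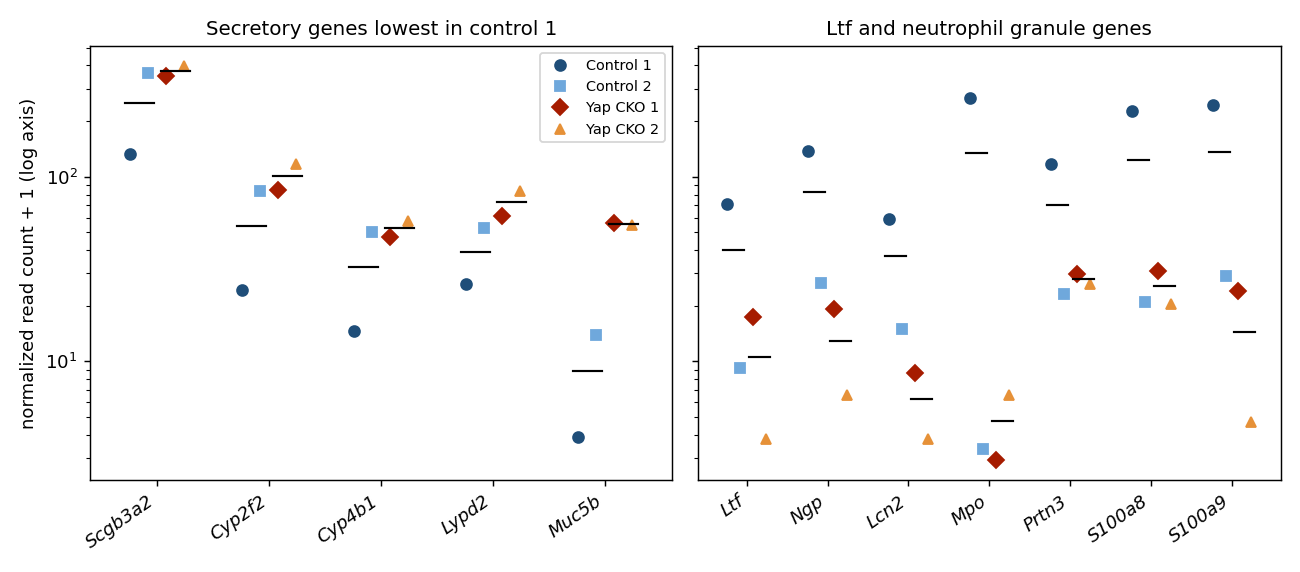
Normalized read counts plus 1 (log axis), 1 point per library, with black bars at group means (n = 2). The left panel shows secretory genes chosen as lowest in control 1. The right panel shows Ltf and the 6 of 7 tested neutrophil granule genes that were at least 2 times higher in control 1. By this choice control 1 is apart in both panels, with Scgb3a2 at 132 and Mpo at 265.

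Scgb3a2 and Cyp2f2 were not the only secretory genes low in control 1. Chosen after the values were seen, genes were counted whose level in control 1 was at most 1/2 of the lowest other library. This held for 2 of the 7 tested members, for 3 of the 16 tested genes of the list of other club and secretory cell genes, and for 1.8% of all genes. The 3 were the airway mucin gene Muc5b, the LY6 family gene Lypd2 and the cytochrome gene Cyp4b1. Lypd2 held 25.2 normalized counts in control 1, against 51.5, 60.6 and 83.0 in control 2 and the Yap CKO pair, and Cyp4b1 held 13.6 against 49.1, 46.1 and 56.9. The measure also held for 7 of the 14 heart muscle genes, for Krt17 of the basal list, for Cyp2r1 and for Agr2. Other secretory genes were highest in control 1, though the share of all genes highest in that library was not counted. Of the 20 listed club and secretory cell genes 9 were highest in control 1. Cftr was among them, and so was Bpifa1, under the floor at 1.94 normalized counts. So were 3 of the 9 members, Scgb1a1 among them. Among the tested genes of these lists, only Ltf was higher there by a factor of 2 or more. None of the 20 general epithelial genes, among them Cdh1 and Epcam, was apart in control 1 by a factor of 2 either way. Of these genes 14 were highest there. The general epithelial genes summed to 27031 and 24472 in controls 1 and 2 and to 21829 and 22657 in Yap CKO 1 and 2.

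Trp63 encodes p63, the transcription factor that defines basal cells (ENSMUSG00000022510, chromosome 16, 25683763 to 25892102, plus strand). Controls held 77.5 and 108 normalized counts and Yap CKO libraries 139 and 135. The Yap CKO values were nearly equal and lay above both controls. The log2 difference was 0.58 ± 0.22 (SE, unadjusted p = 0.0376, adjusted p = 0.233, limma), so it did not pass over all genes. It was 0.35 without control 1 (adjusted p = 0.315) and 0.82 without control 2 (0.0174). Of its relatives, Trp53 differed by -0.20 (adjusted p = 0.507; 0.0076 when libraries were scaled to the general epithelial genes), and Trp73 was at 4.66 to 5.81 normalized counts in all libraries.

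Aqp3 encodes the water and glycerol channel of basal cells (chromosome 4, 41092722 to 41098183). Its normalized counts were 14.5 and 8.19 in controls and 13.5 and 21.4 in Yap CKO, which overlap. The log2 difference was 0.59 ± 0.47 (SE, adjusted p = 0.56, limma), from 59 reads in all. Of the 11 aquaporin genes 6 were tested and none was called (2 at an unadjusted p under 0.05). Aqp4, a water channel found in airway epithelium, stood at 219 and 327 in controls and 118 and 151 in Yap CKO (-0.997, adjusted p = 0.097). Aqp9 differed by 1.07 (adjusted p = 0.147), the endothelial channel gene Aqp1, the most abundant, by -0.04 (0.025 with equal totals), and Aqp11 by 0.05.

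Tspan8 encodes a tetraspanin, a membrane protein with 4 membrane-spanning segments found on airway and gut epithelium (ENSMUSG00000034127, chromosome 10, 115816832 to 115849893, plus strand). Controls held 471 and 568 normalized counts, and Yap CKO libraries held 836 and 905. All Yap CKO values lay above the controls. The controls differed by more than counting error, with a ratio of control 2 to control 1 of 1.21 (95% counting interval 1.06 to 1.37). The ratio of Yap CKO 2 to Yap CKO 1 was 1.08 (0.99 to 1.19). The log2 change was 0.75 ± 0.13 (SE, adjusted p = 0.0427, limma), a 1.68-fold rise on that scale. The call ended without Yap CKO 1 (adjusted p = 0.361, limma) or Yap CKO 2 (0.383), and the adjusted p was 0.00895 without control 1 and 0.00012 without control 2. It also ended with TMM scaling (0.0509), with edgeR on the recovered reads (0.0546), with no filter (0.116) and without the intensity trend (0.152). The antisense gene 4930422I22Rik overlaps exons of Tspan8 and held at most 5.59 normalized counts.

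The rise of Tspan8 stood beside that of another tetraspanin. Of 27 tetraspanin genes 26 were tested, 2 rose and none fell (10 at an unadjusted p under 0.05). Tspan1, which secretory epithelia express, rose from 79.5 and 93.6 normalized counts in controls to 674 and 547 in Yap CKO (2.80 ± 0.18 SE, adjusted p = 0.00474, limma). Tspan4 (-0.60, adjusted p = 0.0525, but 0.0491 with the filter at 50 and 0.0054 with DESeq2) and Tspan33 (-0.71, adjusted p = 0.181) were nearest among the others. The most abundant, Cd81, Tspan3 and Tspan9, differed by -0.23, -0.16 (0.049 when scaled to the general epithelial genes) and -0.27 without passing. Of 16 listed gut epithelial genes 5 rose, 3 did not pass and 8 were too low for the test. The list summed to 148 and 101 normalized counts in controls and to 2355 and 1617 in Yap CKO. The 5 that rose reached the mean of 10 only through the Yap CKO libraries, so the filter largely set their share of the tested genes. Of these, Guca2a, Reg4 and Tff3 had no read in either control, whereas the gut adhesion gene Cdh17 stayed between 4.81 and 10.7. Hnf4a, the nuclear receptor gene of gut and liver, rose from 0.97 and 1.17 to 108 and 68.0 (adjusted p = 0.00653), and so did Agr2, named after its values were seen. Cdx2, the intestinal identity factor gene, had no read in controls and was at 35.6 and 6.52 in Yap CKO (adjusted p = 0.0793), and Lgals4 differed by 0.57 (0.241). Their part in the rise of Tspan8 was not tested.

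**Figure D3:**
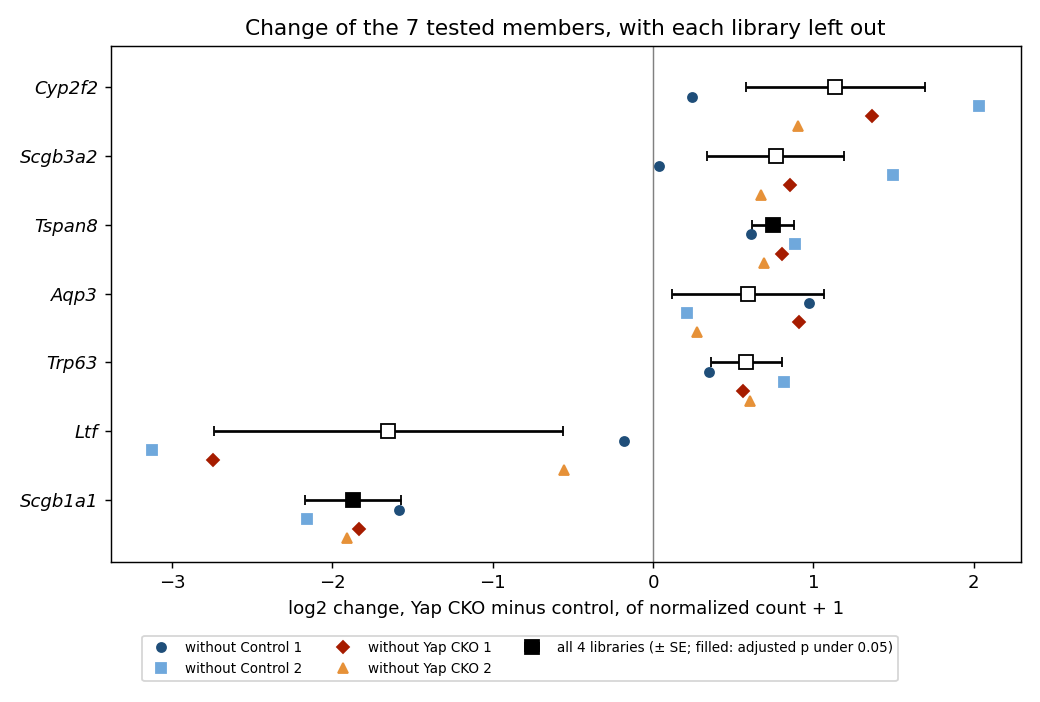
Horizontal positions give the log2 change from control to Yap CKO of the 7 tested members, with all 4 libraries (squares with standard errors, filled where the adjusted p is under 0.05) and with each library left out (colored points). Scgb1a1 stays between -2.16 and -1.59 and Tspan8 between 0.61 and 0.88, whereas Scgb3a2 ranges from 0.035 to 1.497 and Ltf from -3.12 to -0.18.

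Ordered by level per kilobase of exon, Tspan8 led in control lungs with a mean of 305 normalized counts per kilobase, followed by Scgb3a2 (282), Scgb1a1 (184) and Cyp2f2 (26.2). Tspan8 and Scgb3a2 overlapped, with library values of 277 and 334 against 150 and 415. Scgb3a2 and Scgb1a1 (220 and 147) overlapped too, and Scgb1a1 lay above Cyp2f2. Then came Ltf (11.3), Trp63 (11.03), Aqp3 (6.21), Upk3a (5.33) and Scgb3a1 (2.43), and from Cyp2f2 on the library values of neighbours overlapped except between Trp63 and Aqp3 and between Upk3a and Scgb3a1. In Yap CKO lungs the order was Tspan8 (512), Scgb3a2 (426), Cyp2f2 (49.2), Scgb1a1 (47.7), Trp63 (16.4), Aqp3 (9.54), Upk3a (7.40), Scgb3a1 (3.97) and Ltf (2.77). Overlap between neighbours was seen there for Cyp2f2 and Scgb1a1, for Aqp3 and Upk3a and for Scgb3a1 and Ltf. Scgb1a1, at 46.5 and 49.0 per kilobase, lay within the values of Cyp2f2 there (41.3 and 57.1), and above them in both controls. The exon length used joins all annotated exons of a gene. For Trp63 it is 8391 bases, against 5366 in its longest coding transcript, so its place in the order depends on that length.

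Other genes of secretory cells moved both ways. Of 20 other club and secretory cell genes 16 were tested, 1 rose, 2 fell and 13 did not pass, with a median log2 change of -0.14 (9 at an unadjusted p under 0.05). Bpifb1, which encodes a secreted BPI-fold protein of airway goblet and gland cells, rose from 8.72 and 8.19 normalized counts to 134 and 84.8 (3.51 ± 0.34 SE, adjusted p = 0.010, limma). Aldh1a1, a retinaldehyde dehydrogenase gene, fell from 538 and 519 to 184 and 260 (-1.27 ± 0.19, adjusted p = 0.0274), and the claudin gene Cldn10 fell from 333 and 304 to 157 and 180 (-0.92 ± 0.15, adjusted p = 0.040). Muc5b stood at 2.91 and 12.9 in controls and 54.8 and 54.1 in Yap CKO (2.91, adjusted p = 0.0718). It passed with a pseudocount of 5 (0.0482, limma) and with DESeq2 (0.0086). Control means of Bpifb1 and Muc5b (8.45 and 7.89 normalized counts) lay under the filter. Both genes therefore entered the test only through their levels in the Yap CKO libraries. The chloride channel gene Cftr stood at 1279 and 904 against 558 and 702 (-0.78, adjusted p = 0.10, but 0.0055 with DESeq2). The secretory enzyme gene Cbr2, a club cell marker, overlapped between the groups (60.1 and 105 in control, 86.5 and 106 in Yap CKO).

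Of 20 other basal cell genes 18 were tested, none rose, 1 fell and 17 did not pass, with a median of 0.05 (6 at an unadjusted p under 0.05). The fall was in Bcam, a laminin-binding adhesion molecule gene, from 4135 and 4161 to 1882 and 1957 (-1.11 ± 0.09 SE, adjusted p = 0.00582, limma). Ngfr, a nerve growth factor receptor gene that nerves and mesenchyme also express, differed by -0.85 (adjusted p = 0.083), and the 14-3-3 sigma gene Sfn by 0.59 (0.178). Krt5, the keratin that defines mature basal cells, was at 4.85 and 7.02 normalized counts in the control libraries and 2.88 and 1.86 in Yap CKO, too low for the test. The basal label therefore rests on Trp63 and genes other than Krt5 in these lungs. Of the 12 stratified epithelial genes of oesophagus and skin 3 were tested and none was called, with Dsc3 (1.72, adjusted p = 0.083) and Pax9 (0.63, adjusted p = 0.35) nearest, and Sprr3 had no read in any library. Of the 10 thyroid, thymus and parathyroid genes 2 were tested, Hhex (0.29) and Tshr (-0.11; 0.082 when scaled to the general epithelial genes), and neither passed.

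The listed airway epithelial regulators included some of the larger rises, and whether these came from airway secretory cells was not tested. Of 20 airway epithelial regulators, all tested, 5 rose, 1 fell and 14 did not pass, with a median of 0.07 (12 at an unadjusted p under 0.05). Spdef, the ETS factor of mucous cells, rose from 14.5 and 16.4 normalized counts to 175 and 172 (3.41 ± 0.24 SE, adjusted p = 0.00507, limma). Its relatives Ehf and Elf5 also rose (2.80 and 0.88, adjusted p = 0.00559 and 0.0251), as did Cebpa (0.92, adjusted p = 0.0277). Named after their values were seen, the remaining calls were Foxa3, a forkhead factor of goblet cells, which rose from 59.1 and 45.6 to 247 and 141 (adjusted p = 0.0414), and Sox2, the airway progenitor factor, which fell from 374 and 381 to 194 and 208 (adjusted p = 0.0286). Foxa2 (-0.57, adjusted p = 0.0793) and Klf4 (0.51, adjusted p = 0.161) did not pass. Of the 20 general epithelial genes the tight junction gene Cldn4 and the channel-activating protease gene Prss8 fell (-1.09 and -0.74), and 18 did not pass, with Cldn6 and Esrp2 nearest (-0.45 and -0.54). The median of the 20 was -0.19, with 16 lower in Yap CKO and 11 at an unadjusted p under 0.05. Their part in the falls of airway genes was not tested. Scaled to these genes, a setting chosen after seeing the data, Scgb1a1 was at -1.67 (adjusted p = 0.0294, limma). That scaling moved the median log2 change of all genes to 0.20, and 82.9% of its calls were rises.

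**Figure D4:**
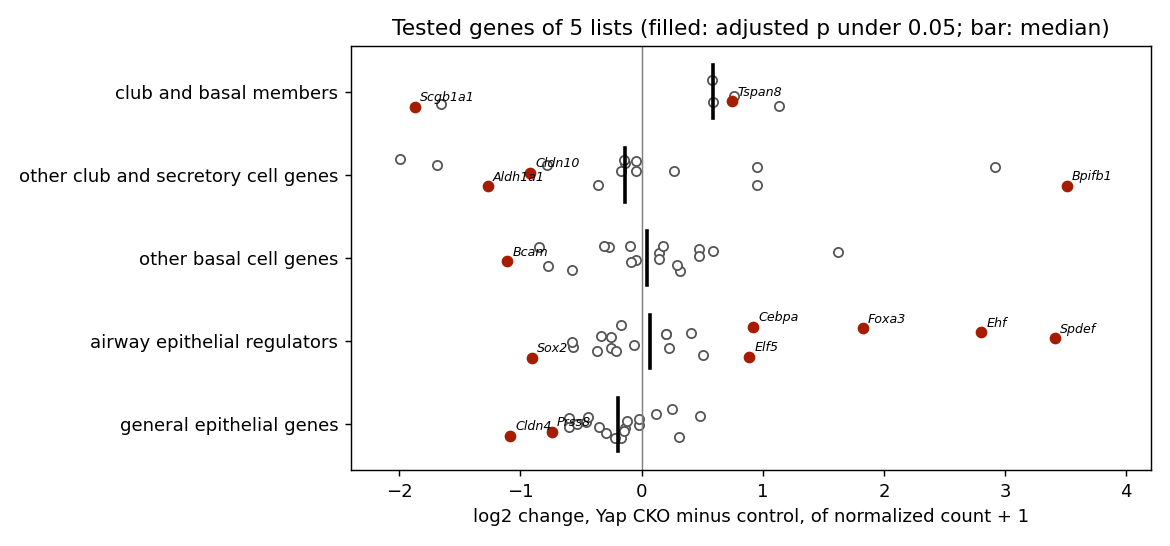
Each point is a tested gene of 1 of 5 lists, placed along the horizontal axis by its log2 change from control to Yap CKO. Filled, named points passed at 0.05, and black bars are medians. The members have a median of 0.59, the value of Aqp3, with Scgb1a1 at -1.87, and the airway regulators reach 3.41 with Spdef.

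All 19 called genes named from the lists beside the members lost the call without Yap CKO 1, and 18 of them without Yap CKO 2, the exception being Guca2a. None of the 19 lost it when either control was left out. With no filter 9 of them lost it and without the intensity trend 16. The genes whose centred log2 profile over the 4 libraries was nearest to that of Scgb1a1, among 14539 protein-coding genes, were Asz1, Ly6h and Nptx1, at root mean square distances of 0.069, 0.107 and 0.12. Asz1 was at 180 and 123 normalized counts in the control libraries and 38.5 and 45.7 in Yap CKO. For Tspan8 they were Cfi, Tbc1d30 and Dcdc2a (0.014, 0.028 and 0.032). Within a distance of 0.1 lay 53 genes for Tspan8 and 1 for Scgb1a1, a distance that also shrinks with the size of the change.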

How the data were processed

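The authors deposited normalized counts, a non-negative signal in which each library's gene counts had been divided by 1 factor. Tools listed in the submitters' processing notes, without role or order, were edgeR 3.18.1, featureCounts 1.5.0-p1, Bowtie2 2.2.9 and DESeq 1.16.0, with mm10 as build. Whole reads were recovered (100% of values within 0.001 reads of a whole number). GENCODE M21 matched 52403 of 52636 identifiers.

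Genes with a mean of at least 10 normalized counts entered limma 3.58.1 (R 4.3.3) on log2(normalized count + 1), two-sided, with an intensity trend and Benjamini-Hochberg adjustment at 0.05. Residual degrees of freedom were 2 per gene, moderated with a prior of 4.54. The fold scale understates changes of low genes. Alternatives were other scalings, pseudocounts of 0.5 and 5, no filter or a filter at 50, no trend, a replicate block, edgeR 4.0.16 and DESeq2 1.42.0 on the recovered reads (404 genes called by edgeR), and leaving out each library. The code was tested on simulated data.

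The members and lists were chosen with earlier results of these data known. All 9 members are named. From each list the text names up to 4 called genes and the 2 uncalled genes with the smallest p, from gene families also the 3 most abundant, and for called members the 3 nearest profiles. Genes outside this rule (Nkx2-1, Cdh1, Epcam, Krt5, Krt17, Cbr2, Lypd2, Cyp4b1, Mpo, S100a8, Elane, Cdh17 and Sprr3) were named after their values were seen.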

Additional observations from a re-analysis of the deposited data

How the results depend on the processing

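The 454 calls over all genes became 56 with no filter, 6 without the intensity trend, 1037 with DESeq2, 858 when libraries were scaled to the general epithelial genes (chosen after seeing the data) and 2 to 2459 when 1 library was left out. That epithelial scaling moved the median of all genes to 0.20, and with it 82.9% of the calls were rises, as were 62.0% with equal totals and 50.9% as deposited. Of the members 1 was called with TMM scaling, with the filter at 50 and with edgeR, 0 with no filter or no trend, and 0 to 6 with 1 library left out, the 6 being without control 2.

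With the replicate number as a block 1 member (Tspan8) and 342 genes were called. Scgb1a1 then had an adjusted p of 0.0578, Cldn10 0.068 and Sox2 0.0503, and the other 17 of the 19 called list genes passed. With epithelial scaling Cldn10 (0.0505) and Prss8 (0.0536) did not pass. The labels do not say what the numbers share, and the deviations of same-numbered libraries correlated at -0.36. With the numbers crossed, chosen after seeing the data, 972 genes and 2 members were called.

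None of the 7 tested members changed direction under these settings, leaving aside the crossed numbers, given as counts only, and the filter at 50 for Aqp3 and Ltf, which it removed. Some companion genes that did not pass did. With equal totals Aqp1 was at 0.025, Cyp2j6 at 0.050 and Cyp2s1 at 0.013. Scaled to the general epithelial genes, Trp53 was at 0.0076, Aqp1 at 0.17, Tspan3 at 0.049, Cyp2j6 at 0.20, Cyp2s1 at 0.16 and Tshr at 0.082. With 1 library left out, they ranged over 0 as follows: Aqp1 from -0.16 to 0.087, Aqp11 from -0.13 to 0.22, Trf from -0.15 to 0.70, Cyp2d22 from -0.038 to 0.13, Cyp2j6 from -0.090 to 0.066, Cyp2s1 from -0.25 to 0.16, Tshr from -0.54 to 0.33. The cause was not tested. Some named companion genes that were not called as deposited passed elsewhere. With DESeq2 these were Muc5b (adjusted p = 0.0086), Cftr (0.0055), Ngfr (0.0132), Foxa2 (0.0256) and Aqp4 (0.0245). DESeq2 also called Cldn6 (0.00535), Esrp2 (0.0207), Ngp (0.0279), Krt19 (0.0493) and Tspan4 (0.0054). Epithelial scaling called Muc5b (0.0447, limma) and Dsc3 (0.0449). The precision is limited by the 168 and 48 reads behind Scgb1a1 and the fewer reads of Aqp3, Upk3a and Scgb3a1.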
